A study of Homo sapiens with 26 samples.

Results

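The DNA replication machinery was followed here as 42 genes, chosen by name from the 41078 genes of the deposited expression table and found there by their Ensembl identifiers. Their expression was described in 26 pancreatic ductal adenocarcinoma cultures, split by whether the tumour suppressor gene SMAD4 was measured below 1 TPM. TPM, is an abundance relative to transcript length and to the library total. The study derived SCDCLs, which are single cell-derived cell lines grown from 1 cell each after limiting dilution, from the classical line BxPC3 and the basal-like line Panc-1. Each SCDCL gave 1 library and no repeat library, so every spread below is one between libraries of different clones. Differences of clone, culture, RNA preparation and library preparation cannot be told apart in it. The label BxPC3 was on 12 libraries and the label Panc-1 on the other 14. All of them carry gemcitabine as a treatment in their labels, but by the methods RNA was taken from flasks close to confluency, and exposure to gemcitabine is described for separate viability assays. The response of the clones to gemcitabine was not analysed here.

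Eukaryotic replication begins when the origin recognition complex (ORC), CDC6 and CDT1 load the ring-shaped MCM2 to MCM7 helicase onto DNA during G1, a step that geminin blocks later in the cycle. CDC45 and the GINS complex then turn the loaded ring into the active helicase, DNA polymerase alpha-primase makes the primers, and polymerases delta and epsilon extend them on the PCNA clamp. Many of these genes are known targets of E2F factors and are transcribed mainly around the entry into S phase, so their level in a culture is commonly read beside its proliferation.

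SMAD4 and the line labels did not match one another. SMAD4 was at 0.0440 TPM or lower in 12 libraries, of which 5 carried the label BxPC3, and at 28.1 to 52.2 TPM in the other 14, of which 7 carried it. BxPC3 is known for a deletion of SMAD4 and Panc-1 for an intact gene, so a library is called here by its label or by its SMAD4 level, and never by its line of origin. The SMAD4-negative libraries had the epithelial cadherin gene CDH1 at 90.8 to 198 TPM and vimentin (VIM), a mesenchymal filament gene, at 1.42 to 73.2 TPM. The SMAD4-expressing libraries had CDH1 at 0.338 to 7.74 TPM and VIM at 3047 to 4526 TPM. Of the 4 epithelial markers (CDH1, EPCAM, KRT19, KRT8), 3 had the higher median in SMAD4-negative libraries, and KRT8 did not. Of the 4 mesenchymal markers (VIM, CDH2, ZEB1, FN1), 3 had the lower median there, and fibronectin (FN1) was higher, at 8.39 to 66.2 against 0.787 to 3.20 TPM. The summed level of 4 genes of leukocytes and endothelium was 7.18 to 28.2 against 46.2 to 146 TPM. CD68 made up 49.0% to 95.5% of that sum in SMAD4-negative and 89.4% to 99.4% in SMAD4-expressing libraries, PECAM1 was at 0.897 to 6.07 and 0.321 to 5.38 TPM, and PTPRC stayed at or below 0.535 TPM in every library. Totals ran from 27035724 to 34945608 estimated counts. Mitochondrially encoded genes took 3.82% to 11.9% of TPM in SMAD4-negative libraries and 1.37% to 6.24% in SMAD4-expressing ones. Their part in the levels below was not tested, but with those genes taken out of the TPM the counts of members given below by median and by range were the same.

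Promoter letters are shown for a few members with an E2F-like word and for 1 without it, because the word was frequent among these genes. RefSeq promoter windows, from 250 bases before to 50 after a gene's start on GRCh38.p14, were matched by symbol for 35 of the 42 genes. MCM4, MCM5, GINS4, POLD3, RPA2, RPA3 and DNA2 had no window there. The E2F-like word TTTNGCGC, searched on both strands, stood in a window of 16 of the 35 genes (45.7%), against 2.17% of 27305 genes with a window and 3.66% of the 10603 of them expressed here. Capitals mark every stretch that matches it on either strand, each line is written 5′ to 3′ on the strand of the gene, and positions are counted from the start. MCM2, chr3:127598351-127598430 on the plus strand, and MCM3, chr6:52284723-52284802 on the minus strand, are shown from -60 to 20. MCM6, chr2:135876514-135876603 on the minus strand, is shown from -160 to -70. MCM7, chr7:100101378-100101457 on the minus strand, and CDC6, chr17:40287819-40287898 on the plus strand, are shown from -60 to 20. ORC2, chr2:200963661-200963740 on the minus strand, is shown from -80 to 0 as a gene without the word.
MCM2: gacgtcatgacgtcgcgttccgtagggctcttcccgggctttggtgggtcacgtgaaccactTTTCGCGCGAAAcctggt
MCM3: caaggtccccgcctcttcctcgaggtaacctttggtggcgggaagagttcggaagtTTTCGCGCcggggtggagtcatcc
MCM6: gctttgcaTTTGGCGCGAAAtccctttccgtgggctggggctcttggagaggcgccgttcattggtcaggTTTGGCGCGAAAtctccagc
MCM7: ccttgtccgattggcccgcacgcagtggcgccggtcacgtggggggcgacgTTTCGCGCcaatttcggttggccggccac
CDC6: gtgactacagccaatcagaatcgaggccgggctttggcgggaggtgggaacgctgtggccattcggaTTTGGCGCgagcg
ORC2: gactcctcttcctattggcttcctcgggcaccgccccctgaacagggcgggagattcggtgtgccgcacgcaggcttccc

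The stretch of MCM2 and both stretches of MCM6 read as the word on each strand in turn, so that the matches overlap one another, and the MCM3, MCM7 and CDC6 stretches match once. Among the licensing genes the word also stood in windows of ORC6, CDT1 and GMNN, and among the polymerase and primase genes in those of POLA1, POLA2, POLE and POLE2. The shorter TTNGCGC, which matches wherever the first word does, was in windows of 22 of the 35 (62.9%), against 15.5% of the expressed genes. CCAAT was also in 22 (62.9%), against 43.3%. The CHR word TTTGAA was in 0 of 35, against 13.7%. PRIM1 and MCM10 lack the word and had the highest mean r with the other members, described below, in SMAD4-expressing clones (0.67 and 0.66). MCM7 and RFC1 hold it and had 0.30 and 0.26 there. In SMAD4-negative clones PRIM1 and MCM10 had 0.59 and 0.67, and MCM7 and RFC1 had 0.68 and 0.34. Whether the word and mean r went together over the 35 genes was not tested. The words found are matches of letters in short windows, and a window without a match says nothing about binding of a factor.

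Across the 42 genes, 33 had the higher median TPM in the SMAD4-negative clones (78.6%), where 49.6% of 15246 expressed genes did. The median difference of the 42 was 0.39 on a log2(TPM + 1) scale, or 1.31-fold, beside -0.0095 for all expressed genes. A median at least 2-fold higher in SMAD4-negative clones was found for 12 of the 42 (28.6%), beside 21.1% of the expressed genes. The 12 and 14 TPM values did not overlap for 9 genes. MCM2, CDC6, CDC45, GINS3, POLD1, RFC1, FEN1 and LIG1 were higher in every SMAD4-negative clone than in any other clone, which is 8 of 42 (19.05%) beside 15.2% of expressed genes. PRIM2 alone was lower in every SMAD4-negative clone, which is 1 of 42 (2.38%) beside 15.8%. The share with separated ranges on the higher side was thus near that of all genes, and the members stood apart from the background mainly in the direction of their medians. In bulk RNA, fewer cells in S phase and less RNA per cell cannot be told apart. Because the members' levels moved together across clones, the 42 directions are not 42 separate observations.

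**Figure D1:**
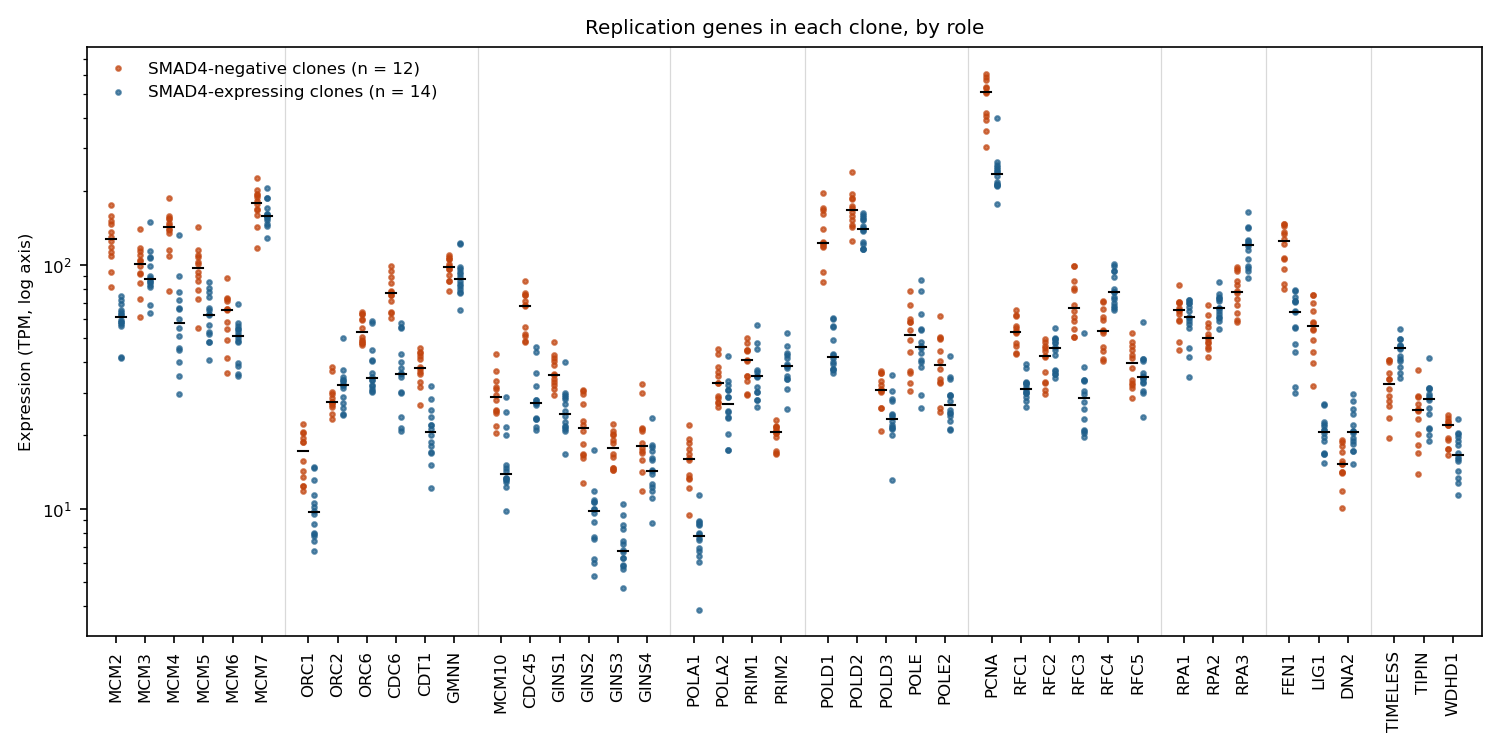
TPM (vertical log axis) of the 42 replication genes, grouped by role along the horizontal axis; each point is a clone, red for the 12 SMAD4-negative and blue for the 14 SMAD4-expressing clones, and black bars are medians. PCNA lies above the other genes, and the red and blue points of POLD1, LIG1 and GINS3 do not meet while those of MCM3 and MCM7 lie over each other.

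**Figure D2:**
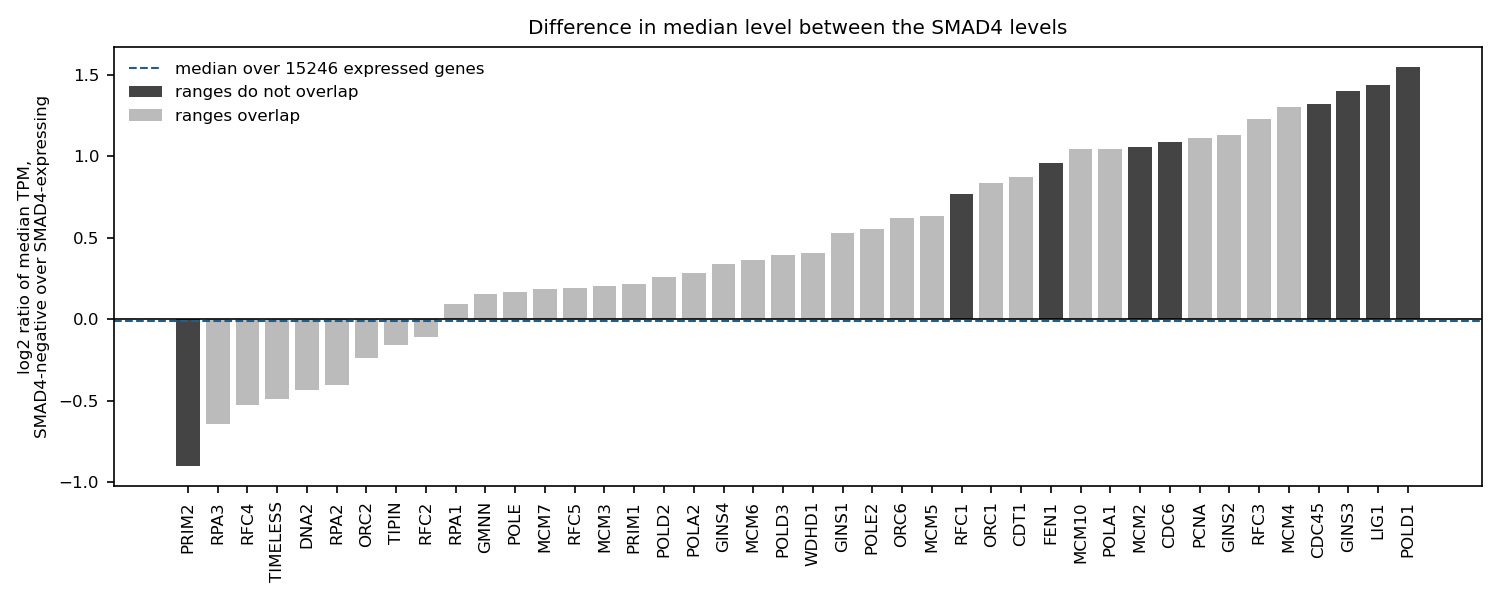
log2 ratio of median TPM, SMAD4-negative over SMAD4-expressing clones (vertical axis), for each of the 42 genes in order of size; dark bars mark genes whose values do not overlap, and the dashed line is the median over 15246 expressed genes. POLD1 is at the right end with 1.55 and PRIM2 at the left end with -0.90.

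The MCM2 to MCM7 helicase genes all had the higher median in SMAD4-negative clones, by unequal amounts. MCM2 was at 81.0 TPM in the lowest, 127 at the median and 176 in the highest SMAD4-negative clone, and at 41.7, 61.0 and 74.2 TPM in the SMAD4-expressing clones. The medians differed 2.09-fold and the ranges did not overlap. MCM4 had values of 78.4, 143 and 188 TPM against 29.6, 57.7 and 133 TPM, a 2.47-fold difference of medians, with the highest SMAD4-expressing clone reaching into the other range. MCM4 in the SMAD4-expressing clones was also the least certain estimate of the set, since its SD between clones on the log2 scale (0.557) was 1.79 times the SD of the repeated estimates that kallisto made from the same library. For the other members that multiple was above 2 in each SMAD4 level. MCM5 was at 54.9, 96.8 and 143 TPM against 40.9, 62.4 and 85.2 TPM, or 1.55-fold. MCM6 was at 36.0, 65.5 and 88.6 TPM against 34.9, 50.9 and 69.1 TPM, or 1.29-fold. The ranges of these middle subunits overlapped. MCM3, at 61.4, 101 and 140 TPM against 63.4, 87.6 and 150 TPM, and MCM7, at 117, 180 and 228 TPM against 128, 158 and 207 TPM, had nearly coincident ranges. The helicase subunits form a ring with 1 copy of each, and the ratio of their transcript levels per length was not constant: MCM2 over MCM3 was 1.17 to 1.42 in SMAD4-negative clones and 0.495 to 0.823 in the others. Of 13 such ratios between partner genes, chosen after the values had been seen, 8 did not overlap between the SMAD4 levels. Most of these 8 hold a gene whose own range was separated, and no share over other gene ratios was computed. The count is therefore a description only. The 5 that overlapped were MCM4 over MCM7, RPA1 over RPA3, CDC6 over ORC2, CDT1 over GMNN and POLE over POLE2, and the ratios given below are among the 8.

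Of the licensing genes, CDC6 had the clearest difference. CDC6, the ATPase that brings the helicase to ORC, was at 60.6, 76.4 and 98.7 TPM in SMAD4-negative clones and at 20.8, 35.9 and 58.0 TPM in SMAD4-expressing clones. The medians differed 2.13-fold, and the gap between the ranges was small. CPM, a count relative to the library total, was scaled between libraries by TMM or median-of-ratios factors. The deposited counts behind it were already scaled by length, so CPM is no check on the correction for length. On CPM with either factor, and on TPM divided by the library median, the ranges of CDC6 overlapped. CDT1, its partner in loading, was at 26.6, 37.9 and 45.5 TPM against 12.1, 20.7 and 31.9 TPM, or 1.83-fold with overlap. GMNN, which encodes the CDT1 inhibitor geminin, had a median of 97.7 TPM (77.9 to 110) against 87.5 TPM (65.1 to 123), and these ranges lay over each other. ORC1, the ORC subunit whose level changes in the cell cycle, was among the low members, at 11.9, 17.3 and 22.3 TPM against 6.70, 9.68 and 14.8 TPM. ORC6 was at 46.8 to 63.9 TPM against 30.1 to 59.2 TPM. ORC2, a core subunit, was the licensing gene with the lower median in SMAD4-negative clones, with overlapping ranges of 23.3 to 38.02 and 24.3 to 50.1 TPM.

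All 6 genes of helicase activation had higher medians in SMAD4-negative clones. CDC45 was at 48.4, 68.1 and 85.9 TPM against 21.2, 27.2 and 46.2 TPM, a 2.50-fold difference of medians without overlap. GINS3 was at 14.5, 17.8 and 22.4 TPM against 4.76, 6.72 and 10.5 TPM, or 2.64-fold, also without overlap. The other GINS subunits overlapped. GINS2 was at 12.8, 21.5 and 30.9 TPM against 5.30, 9.84 and 17.4 TPM, GINS1 at 29.4, 35.4 and 48.4 TPM against 16.8, 24.6 and 39.8 TPM, and GINS4 at 11.9, 18.2 and 32.6 TPM against 8.80, 14.4 and 23.7 TPM. The excess in SMAD4-negative clones thus went from 2.64-fold for GINS3 to 1.26-fold for GINS4 within a complex of 4 subunits. MCM10, an activation factor at the origin, was at 20.5, 28.6 and 43.0 TPM against 9.77, 13.9 and 28.7 TPM, or 2.06-fold with overlap.

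The polymerase alpha-primase genes were split. POLA1, the catalytic subunit of polymerase alpha and the member with the lowest median over all libraries (9.21 TPM), was at 9.47, 16.01 and 22.2 TPM against 3.87, 7.76 and 11.4 TPM, or 2.06-fold. All but 1 of the SMAD4-negative clones lay above every SMAD4-expressing clone. PRIM2, the large primase subunit, went the other way, at 16.8, 20.7 and 23.1 TPM in SMAD4-negative and 25.7, 38.6 and 52.6 TPM in SMAD4-expressing clones, with a median 1.87-fold higher in the latter. PRIM2BP, a named copy of PRIM2, was also quantified, so that reads may have been divided between them. Repeated kallisto estimates of PRIM2 had an SD of 0.052 in SMAD4-negative and 0.047 in SMAD4-expressing clones on the log2 scale. The separation of PRIM2 also depended on the scale: on the scales on which CDC6 overlapped, the ranges of PRIM2 overlapped too. PRIM1, the catalytic primase subunit, was at 29.3, 40.6 and 50.01 TPM against 26.2, 34.9 and 56.8 TPM, and POLA2 at 26.1 to 45.3 TPM against 17.4 to 42.2 TPM. Neither separated the clones. POLA1 over PRIM2 was 0.449 to 1.03 in SMAD4-negative clones and 0.113 to 0.237 in the others.

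POLD1, the catalytic subunit of polymerase delta, had the largest ratio of medians of the 42 genes. It was at 85.1, 123 and 197 TPM in SMAD4-negative clones and at 35.9, 42.1 and 60.6 TPM in SMAD4-expressing clones, 2.93-fold. Its accessory subunit POLD2, one of the most abundant members, was at 126, 168 and 240 TPM against 116, 140 and 163 TPM, only 1.20-fold, and the ranges overlapped. POLD1 over POLD2 was therefore 0.566 to 1.15 against 0.234 to 0.520. POLD1 shares exon sequence on the same strand with a neighbouring gene in the GENCODE annotation. POLA2, PRIM1 and TIPIN also share such sequence with other annotated genes. POLD3, a further subunit, was at 20.9 to 36.9 TPM against 13.1 to 35.5 TPM. For polymerase epsilon, the catalytic POLE varied widely inside both SMAD4 levels, at 30.4, 51.6 and 78.0 TPM against 26.01, 46.0 and 87.0 TPM. POLE2 was at 24.9, 39.0 and 61.6 TPM against 21.1, 26.6 and 42.4 TPM. The ranges of both epsilon genes overlapped.

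PCNA, the sliding clamp, was the most abundant member, with a median of 284 TPM over all libraries. It was at 304, 510 and 606 TPM in SMAD4-negative clones and at 177, 235 and 399 TPM in SMAD4-expressing clones, 2.17-fold, and a single SMAD4-expressing clone, library 22, reached into the upper range. The clamp loader subunits differed from one another. RFC1, its large subunit, was at 42.9, 53.2 and 65.2 TPM against 26.1, 31.1 and 39.4 TPM, 1.71-fold without overlap, and RFC3 was at 50.5, 66.8 and 98.8 TPM against 19.6, 28.5 and 52.8 TPM, 2.35-fold with overlap. RFC4 had the lower median in SMAD4-negative clones, with overlap, at 40.5, 53.7 and 71.0 TPM against 65.6, 77.4 and 101 TPM, so that RFC3 over RFC4 was 0.849 to 1.99 in SMAD4-negative and 0.248 to 0.521 in SMAD4-expressing clones. RFC2 (29.6 to 49.5 against 34.4 to 55.2 TPM) and RFC5 (28.5 to 52.5 against 23.8 to 58.2 TPM) also overlapped. Named copies of PCNA, RFC3 and RFC5 were also quantified, so that reads may have been divided between each gene and its copies. The SD of repeated kallisto estimates, on the log2 scale in SMAD4-negative and SMAD4-expressing clones, was 0.016 and 0.024 for PCNA. It was 0.034 and 0.056 for RFC3, and 0.034 and 0.046 for RFC5.

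RPA, the trimer that coats single-stranded DNA, differed between subunits. RPA1 was at 44.9, 65.1 and 82.3 TPM in SMAD4-negative and 34.6, 60.9 and 71.8 TPM in SMAD4-expressing clones. RPA2 was at 42.1, 50.3 and 68.5 TPM against 54.5, 66.4 and 85.3 TPM, a median 1.32-fold higher in SMAD4-expressing clones, and RPA3 was at 58.6 to 98.3 TPM against 88.1 to 165 TPM, with a median 1.56-fold higher there. Both overlapped between the levels, and both have named copies that were quantified too. So do ORC1, POLD2, FEN1 and TIPIN.

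Among the genes of Okazaki fragment maturation, FEN1 and LIG1 were separated. The flap endonuclease FEN1 was at 80.0, 125 and 147 TPM against 29.7, 64.4 and 78.8 TPM, 1.94-fold, with the ranges almost touching in TPM and overlapping on the scales on which CDC6 overlapped. FEN1 shares exon sequence with FADS2 on the same strand. The nick-sealing ligase LIG1 was at 31.8, 56.1 and 75.0 TPM against 15.4, 20.7 and 27.0 TPM, 2.71-fold. DNA2, the nuclease for long flaps, had the lower median in SMAD4-negative clones, with overlap, at 10.1 to 19.1 TPM against 15.4 to 29.7 TPM. The 3 maturation genes were thus expressed in different proportions, with LIG1 over DNA2 at 2.70 to 4.56 against 0.695 to 1.42.

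The fork protection genes overlapped throughout. TIMELESS was at 19.5, 32.5 and 40.7 TPM in SMAD4-negative clones and 34.5, 45.5 and 54.5 TPM in SMAD4-expressing clones, so that its median was 1.40-fold higher in the latter. Its partner TIPIN was at 13.9, 25.3 and 37.0 TPM against 18.97, 28.2 and 41.7 TPM. WDHD1, which links the helicase to polymerase alpha, was at 16.7 to 24.3 TPM against 11.4 to 23.3 TPM.

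The question that the labels pose is whether replication genes differed between clones labelled BxPC3 and clones labelled Panc-1. The edgeR quasi-likelihood test over 16008 genes called 0 of the 42 members at a Benjamini-Hochberg adjusted p under 0.05, where it called 0 genes in all (0%). At an unadjusted p under 0.05 it called 0 members beside 367 genes (2.29%). DESeq2 called 2 genes and limma 0, and neither called a member, with 676 and 279 genes at an unadjusted p under 0.05. With the SMAD4 level as a covariate edgeR still called 0 genes, and 1 member had an unadjusted p under 0.05. This was ORC6, which was lower under the Panc-1 label by a log2 fold change of -0.27 (SE 0.089, edgeR adjusted p = 0.615). Within SMAD4-negative libraries alone, edgeR called 0 genes, and 34 of the 42 members were higher under the Panc-1 label. At an unadjusted p under 0.05 stood 4 members beside 1840 of 16124 genes. Within SMAD4-expressing libraries alone it called 0 genes, and 2 of the 42 members were higher under that label. There 3 members and 700 of 15161 genes had an unadjusted p under 0.05. The share of all tested genes that were higher under the Panc-1 label was not computed in either level. Because members vary together, these directions are not separate observations, and nothing is concluded from their counts. The test of whether the label difference itself differed between the SMAD4 levels called 0 genes, and at an unadjusted p under 0.05 it held 8 of the 42 members (19%) beside 7.95% of the genes. The lowest adjusted p of a member there was 0.604, for GINS2. These tests take clones as replicates, and since 14 of the 26 labels go against SMAD4, a missing difference between labels is no statement about the lines.

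Within each SMAD4 level, the replication genes varied together from clone to clone. Over the 861 pairs of members, the median Pearson's r of log2(TPM + 1) was 0.61 across the 12 SMAD4-negative clones, and r was above 0 for 826 pairs. It was 0.55 across the 14 SMAD4-expressing clones, with 793 pairs above 0. Pairs of all genes with a median of at least 5 TPM had medians of 0.12 (10959 genes) and 0.034 (10721 genes). An r above 0.5 was reached by 62.3% of member pairs beside 16.9% of all pairs in SMAD4-negative clones, and by 56.8% beside 7.53% in SMAD4-expressing clones. The genes of a pair share each library's depth and scaling, and the pairs share genes, so these values are a description.

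**Figure D3:**
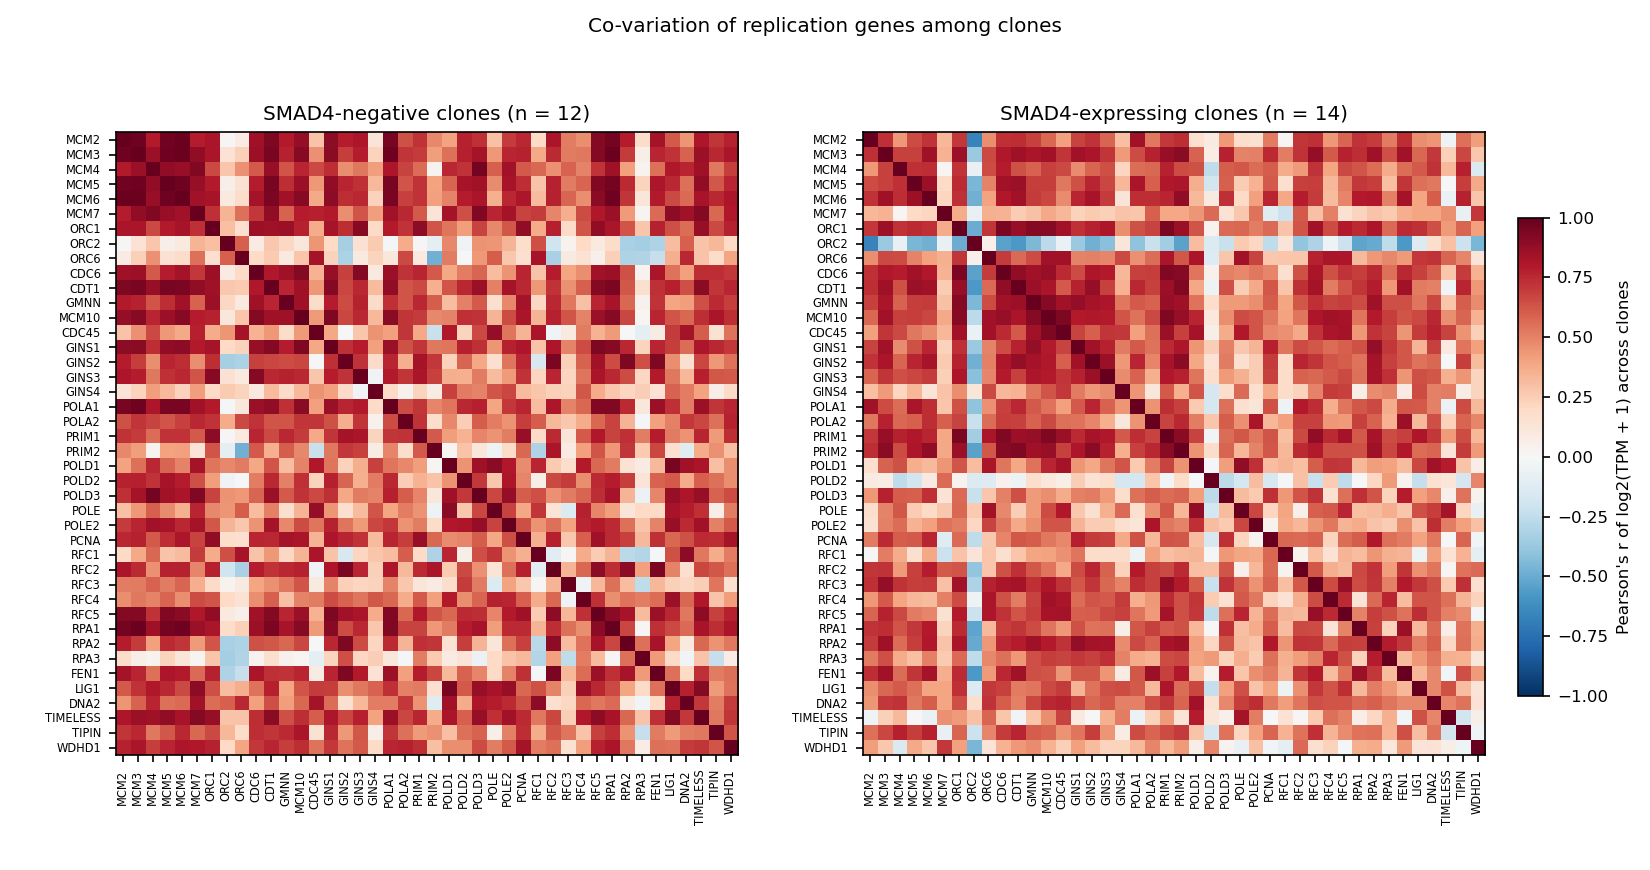
Pearson's r of log2(TPM + 1) across clones (colour, -1 to 1) for every pair of the 42 replication genes, ordered by role on both axes, in SMAD4-negative clones (left) and SMAD4-expressing clones (right). Most cells are red in both panels, the MCM block at the upper left is darkest on the left, and the ORC2 row is pale on the left and mostly blue on the right.

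The helicase genes were the tightest group in SMAD4-negative clones, with a median r of 0.89 among the 6 and no pair below 0.79. In SMAD4-expressing clones their median was 0.68 and the lowest pair was at 0.017, and MCM7 had a mean r of 0.30 with the other members against 0.68 in SMAD4-negative clones. The licensing genes were looser in SMAD4-negative clones (median r of 0.30) than in SMAD4-expressing clones (0.70). The polymerase genes had 0.75 and 0.31. POLD2 kept a mean r of 0.53 with the other members in SMAD4-negative clones and 0.046 in SMAD4-expressing clones. ORC2 had the lowest mean r in SMAD4-expressing clones (-0.24) and the second lowest in SMAD4-negative clones (0.17), where RPA3 was lowest (0.14). The highest mean r belonged to RFC5 in SMAD4-negative clones (0.70) and to PRIM1 in SMAD4-expressing clones (0.67). Whether r of any gene or pair, here or below, differed between the SMAD4 levels was not tested.

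For 12 pairs of genes, chosen with earlier results of these data known, r was tested within each SMAD4 level. They were pairs of replication partners, and MCM2 and PCNA each with the proliferation gene MKI67. The two-sided permutation test used 100000 permutations, and p was adjusted over the 24 relations. Of these, 17 had an adjusted p under 0.05, 8 in SMAD4-negative and 9 in SMAD4-expressing clones, and all 17 were positive. With Spearman's rho 16 did, and without the 2 clones farthest from the median of the first gene 14 did. The test sets r against 0, whereas all pairs of members had a median r of 0.61 in SMAD4-negative and 0.55 in SMAD4-expressing clones. Passing therefore does not set a partner pair apart from other pairs of members, and the share of all member pairs that would pass was not computed. The subunit pair MCM2 and MCM3 had r = 0.97 in SMAD4-negative clones (rho 0.95, permutation p = 1e-05, the smallest that the permutations can give) and 0.73 in SMAD4-expressing clones (rho 0.76, adjusted permutation p = 0.00951). Without the 2 farthest clones r was 0.94 and 0.80. MCM5 and MCM6 had 0.97 and 0.86 (rho 0.94 and 0.85, adjusted permutation p = 8e-05 and 0.000768), with 0.94 and 0.82 without the 2 farthest clones. The licensing pair CDC6 and ORC1 had r = 0.94 in SMAD4-expressing clones (rho 0.91, adjusted permutation p = 8e-05) and 0.85 in SMAD4-negative clones (rho 0.90, adjusted permutation p = 0.00161), with 0.92 and 0.82 without the 2 farthest clones. CDT1 and its inhibitor gene GMNN also varied together, with r = 0.76 and 0.86. POLA1 with PRIM1 had 0.72 and 0.74, RPA1 with RPA2 0.67 and 0.68, and GINS1 with GINS2 0.73 and 0.84, and all of these passed. Over the last 4 pairs rho lay between 0.71 and 0.79 (adjusted permutation p from 0.0042 to 0.0201), the adjusted permutation p of r between 0.000768 and 0.0256, and r without the 2 farthest clones between 0.60 and 0.83. For GINS1 and GINS2 in SMAD4-expressing clones, r was 0.60 without the 2 farthest clones and the adjusted permutation p was then 0.0663.

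The remaining partner pairs passed in a single SMAD4 level or in neither. RFC3 and RFC4 had r = -0.03 in SMAD4-negative clones (rho -0.10, adjusted permutation p = 0.917) and 0.65 in SMAD4-expressing clones (rho 0.68, adjusted permutation p = 0.0179). Without the 2 farthest clones r was -0.38 and 0.44, and the latter did not pass (adjusted permutation p = 0.23). TIMELESS and TIPIN, whose proteins form a dimer, had r = 0.52 (rho 0.48, adjusted permutation p = 0.0968) and -0.18 (rho -0.29, adjusted permutation p = 0.556), with 0.42 and -0.04 without the 2 farthest clones. PCNA and FEN1, which it binds, had 0.73 (rho 0.79, adjusted permutation p = 0.0135) and 0.52 (rho 0.33, adjusted permutation p = 0.0895), with 0.92 and 0.22 without the 2 farthest clones.

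**Figure D4:**
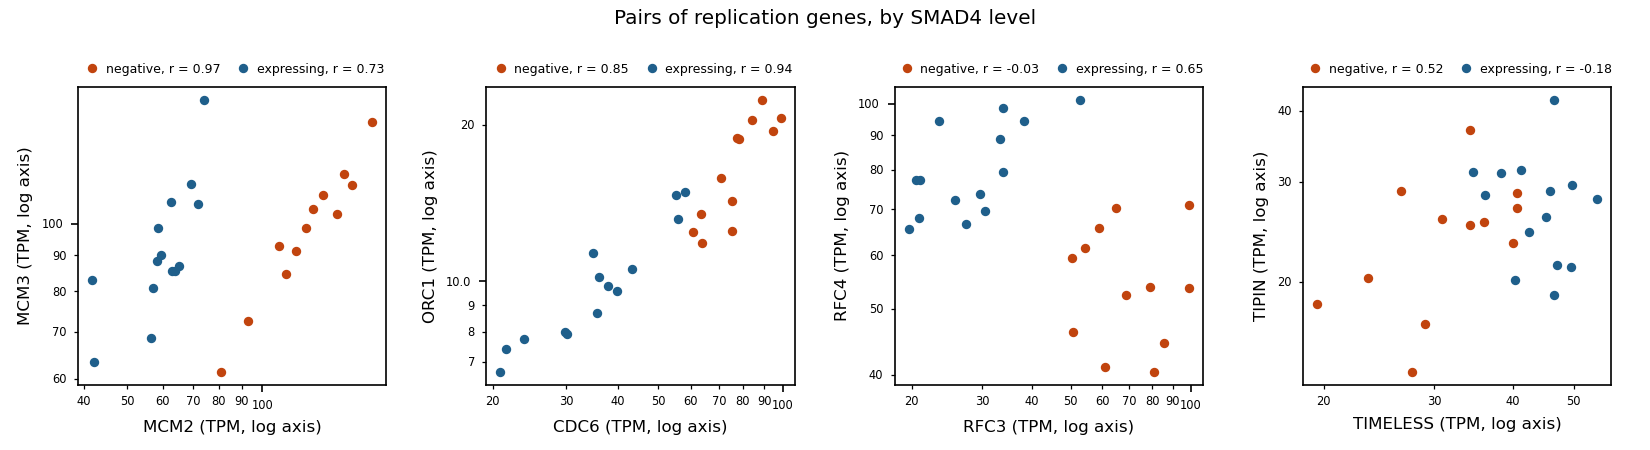
TPM of the second gene (vertical log axis) against TPM of the first gene (horizontal log axis) for MCM2 with MCM3, CDC6 with ORC1, RFC3 with RFC4 and TIMELESS with TIPIN; each point is a clone, red for SMAD4-negative and blue for SMAD4-expressing, and r is Pearson's r of log2(TPM + 1). MCM2 and MCM3 follow separate lines in the 2 colours, while CDC6 and ORC1 lie along a common line.

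The proliferation gene MKI67 was set beside the clamp and the helicase. MKI67 was at 19.5, 42.6 and 65.7 TPM in SMAD4-negative and 28.0, 51.9 and 84.0 TPM in SMAD4-expressing clones, so its median was higher in the level where most replication genes were lower. MCM2 and MKI67 had r = 0.70 in SMAD4-expressing clones (rho 0.56, adjusted permutation p = 0.00951 for r), which was 0.43 without the 2 farthest clones, and 0.22 in SMAD4-negative clones (rho 0.29, adjusted permutation p = 0.548). By rho that relation in SMAD4-expressing clones did not pass (adjusted permutation p = 0.0599). PCNA and MKI67 had 0.52 (rho 0.44, adjusted permutation p = 0.0968) and 0.38 (rho 0.16, adjusted permutation p = 0.21), which did not pass either. Of 8 proliferation genes, 3 had the higher median in SMAD4-negative clones and 5 the lower. The mitotic checkpoint kinase gene BUB1 was lower in every SMAD4-negative clone, at 39.4 to 52.6 TPM against 65.5 to 128 TPM.

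A few clones set the ends of many ranges. The mean deviation of the 42 genes from their SMAD4 level mean, on the log2(TPM + 1) scale, ran from -0.39 in library 26 to 0.36 in library 3 among SMAD4-negative clones, a 1.68-fold span. In library 3, 41 of the 42 genes were above the mean of the level, and in library 26 only 3 were. Library 3 was the highest SMAD4-negative clone for 26 genes and library 26 the lowest for 21. Mitochondrially encoded genes took 10.4% of TPM in library 26 and 3.82% in library 3, and their part in these ends was not tested. Among SMAD4-expressing clones the mean deviation ran from -0.29 in library 14 to 0.47 in library 22, a 1.70-fold span, and library 22 was the highest for 32 of the 42 genes. MKI67 was at 28.0 TPM in library 14 and 84.0 TPM in library 22, the lowest and the highest of that level. Without library 22, 12 of the 42 genes were above all SMAD4-expressing clones in every SMAD4-negative clone beside 15.7% of expressed genes, with GINS2, POLA1, PCNA and RFC3 added to the 8. Without the lowest and highest clone of each level, the median r over pairs was 0.49 in SMAD4-negative and 0.46 in SMAD4-expressing clones.

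**Figure D5:**
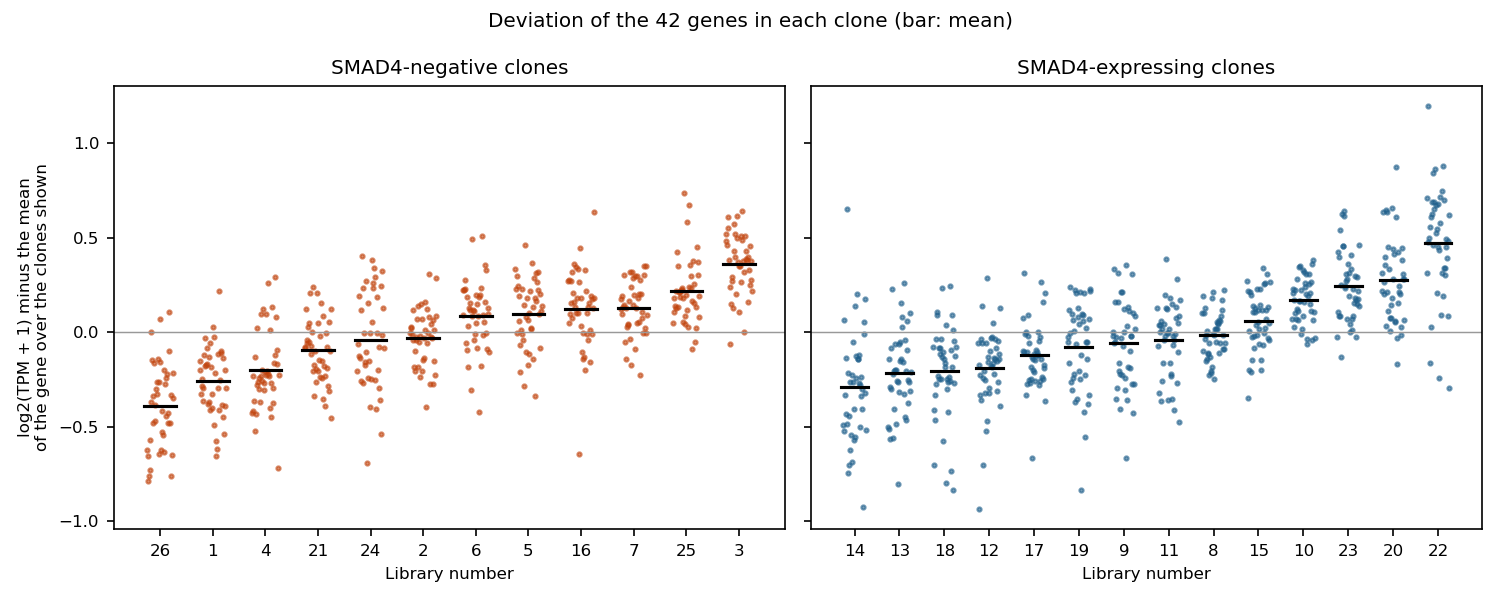
Deviation of each of the 42 genes from its mean over the clones of the same SMAD4 level, log2(TPM + 1) (vertical axis), for each library (horizontal axis, by number, in order of the mean); points are genes and black bars are means. Nearly all genes of library 3 and library 22 lie above 0 and nearly all of library 26 and library 14 below it.

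A further 25 genes of replication and its control were set beside the 42. Of these, 15 (60%) had the higher median in SMAD4-negative clones, beside 49.6% of expressed genes, and 10 the lower. The values did not overlap for 2 on the higher side (8%, beside 15.2%) and for 1 on the lower side (4%, beside 15.8%). Those 3 genes also had the largest differences of medians in the list. MTBP, a partner of the firing factor TICRR, was at 17, 23.6 and 31.7 TPM against 5.38, 7.56 and 11.3 TPM, 3.12-fold higher at the median. POLE3, a histone-fold subunit of polymerase epsilon, was at 84.1, 107 and 130 TPM against 34.8, 49.5 and 71.0 TPM, 2.16-fold. RNASEH1, which removes RNA from RNA-DNA hybrids, was lower, at 6.69, 9.24 and 12.8 TPM against 23.8, 27.7 and 38.9 TPM, a median 3.0-fold higher in SMAD4-expressing clones. Between the labels edgeR called 0 of the 25 and gave 1 an unadjusted p under 0.05.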

How the data were processed

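Poly-A RNA of each SCDCL was sequenced from strand-specific libraries. The authors quantified transcripts with kallisto 0.46.1 (version per the submitters' processing notes) on GRCh38 and Ensembl 103, and deposited TPM, estimated counts scaled by length with tximport, and 30 repeated kallisto estimates of the counts for each library. From the deposited estimated counts, rounded, the labels were compared with edgeR 4.0.16 (TMM, filterByExpr, quasi-likelihood test, Benjamini-Hochberg over all genes), with DESeq2 1.42.0 and limma 3.58.1 as alternatives, after edgeR had been tested on simulated data. From the deposited TPM, levels were described by range and median, without a test between SMAD4 levels, because SMAD4 was read in the same libraries. Expressed genes had a median of at least 1 TPM in either level. Correlations used log2(TPM + 1), and the first 5 repeated estimates gave the estimation error. That error is within a library and holds no variation of culture or library preparation. The members, the lists and the pairs were chosen with earlier results of these data known. All 42 members passed every filter. Genes were named in full by the rule that their ranges did not overlap, that they were among the 5 with the largest SD within a level or the 3 highest or lowest in level, or that they belonged to a tested pair, and the others by range. Totals of 27035724 to 34945608 estimated counts (median 29623513) gave each member at least 162 estimated counts in every library. Where several promoter windows of a gene were listed, a match in any of them was counted. Python 3.11.15 with pandas 2.3.3, numpy 2.4.6, scipy 1.17.1 and matplotlib 3.10.9, R 4.3.3 and GENCODE 44 positions were used.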

Additional observations from a re-analysis of the deposited data

How the results depend on the processing

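No member was called between the labels with any other normalization, filter, tool or covariate tried, or without any 1 of the 26 libraries (0 in each), and the counts of members by median direction were 33 throughout and 11 to 12 for a 2-fold difference when single libraries were left out. The 2-fold count was 10 on CPM with TMM factors. It was 11 on CPM with median-of-ratios size factors and on TPM over the library median. The share of all genes was not computed on those scales. The number separated and higher in SMAD4-negative clones was 8 to 12 (12 without library 22), and 6 on both CPM scales and on TPM over the library median, where CDC6 and FEN1 overlapped. The number separated and lower was 1 without any single library and 0 with CPM and TMM factors, with CPM and median-of-ratios size factors, and with TPM over the library median, where PRIM2 overlapped. The median pairwise r was 0.54 to 0.67 in SMAD4-negative and 0.48 to 0.58 in SMAD4-expressing clones without single libraries. It was 0.48 in SMAD4-negative clones on CPM with median-of-ratios size factors, and 0.49 and 0.46 without the lowest and highest clone of each level, an alternative added after the data had been seen. The cause was not tested. Of the tested pairs, GINS1 with GINS2 (r of 0.60), RFC3 with RFC4 (0.44) and MCM2 with MKI67 (0.43), all in SMAD4-expressing clones, no longer passed without the 2 farthest clones. Over all alternatives, 196 summary values stayed the same by their threshold, within 1.5 times or within the spread between clones, 6 moved and 0 reversed; of values for single genes and pairs 129 stayed the same and 3 weakened. No paired analysis was possible because the library numbers are not shared between the labelled groups. Estimation error within a library was largest for MCM4 in SMAD4-expressing clones (SD 0.31 on the log2 scale), and a difference of that size between single clones could not be detected for it.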

Other observations

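Genes outside the set that varied with it were ranked by the lower of their mean r with the 42 members in the SMAD4-negative and SMAD4-expressing clones, over 9560 other genes with a median of at least 5 TPM in both levels. This ranking was chosen after the data had been seen and is a description. ATAD2, a chromatin ATPase, came first with a mean r of 0.68 in SMAD4-negative and 0.66 in SMAD4-expressing clones. The spindle gene TACC3 (0.64 and 0.66), the condensin subunit gene NCAPH (0.70 and 0.64), the S-phase kinase gene CDK2 (0.68 and 0.64) and the kinetochore gene NDC80 (0.64 and 0.65) followed, and thymidylate synthase (TYMS) was at 0.67 and 0.63. Both S-phase and mitotic genes were thus among the nearest.

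The cyclin gene CCNA2 had the largest SD of the 8 proliferation genes in SMAD4-expressing clones, where it went from 0.00051 to 33.9 TPM, whereas SMAD4-negative clones had 22.9 to 51.3 TPM. In the same SMAD4-expressing clones the mitotic genes CCNB1 and PLK1 were at 208 to 498 TPM and 53.7 to 150 TPM.

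CD68, a lysosomal glycoprotein gene used as a macrophage marker, was at 42.5 to 141 TPM in SMAD4-expressing and 5.27 to 26.9 TPM in SMAD4-negative clones, while PECAM1 was at 0.321 to 5.38 and 0.897 to 6.07 TPM, and PTPRC was at or below 0.535 TPM and VWF at or below 0.473 TPM in all libraries.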
